A study of Mus musculus with 6 samples.

Results

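Csrp2, fascin and 6 further genes of actin-binding proteins were examined in dendritic cells grown from bone marrow (BMDCs) of WT and Nfkb2-/- mice. The 8 genes, Csrp1, Csrp2, Fscn1, Marcks, Marcksl1, Lsp1, Lcp1 and Actn1, were taken by name from the 21849 genes tested. The set was selected on the measured difference of Csrp2 between the genotypes, the largest fall among called genes, and the other 7 were added as genes of related proteins. Differences of the 8 genes between genotypes are therefore described and not tested. All 8 had counts above the filter on low values. Polyadenylated RNA was taken from unstimulated cells of 3 WT and 3 Nfkb2-/- cultures, 6 libraries in all, which the study calls independent biological replicates. The WT mice were C57BL/6, and the knockout was global, so that every cell in the cultures carried it. Bone marrow cells were kept with 20 ng/mL GM-CSF for 5 days and then with 20 ng/mL GM-CSF and 10 ng/mL IL-4 for 4 days, 9 days in total. Age and sex of the donor mice were not given for these cultures in the sources used here. The study describes the protocol as one that yields mostly CD11c+ cells without macrophage-like cells of high CD115. In bulk RNA, fewer cells of a type and less RNA per cell cannot be told apart.

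Actin filaments give a dendritic cell its shape, its long membrane extensions and its means of migration, and bundling proteins tie single filaments into stiff cables. Fascin, the product of Fscn1, packs filaments into tight parallel bundles in filopodia and in the extensions of mature dendritic cells, for which it is a classical marker. Lcp1 encodes L-plastin, the bundler of leukocytes, and Actn1 encodes alpha-actinin, which crosslinks filaments into looser arrays and at adhesion sites. Csrp1 and Csrp2 encode small cysteine-rich proteins built of LIM domains, zinc-binding modules through which they contact alpha-actinin and actin bundles. Marcks and Marcksl1 encode membrane-bound substrates of protein kinase C that bind calmodulin and crosslink actin, and Lsp1 encodes an actin-binding protein of leukocytes.

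Each library held between 29863927 and 55623068 counts on Ensembl genes. Levels are given as CPM, counts scaled to a common library size after TMM normalization, with 1 count worth 0.0180 to 0.0335 CPM before TMM. Values after ± are the SD over 3 libraries unless named as a standard error (SE), and log2 changes are Nfkb2-/- over WT. Nfkb2, the targeted gene, measured 154 to 355 CPM in the WT and 32.3 to 44.8 CPM in the Nfkb2-/- libraries, in the direction of the labels. Its log2 change was -2.72 (SE 0.33), with an edgeR adjusted p = 0.0307 that rose to between 0.0876 and 0.163 without WT replicate 1 or any 1 of the Nfkb2-/- replicates. In Nfkb2-/- replicate 1, 47952 genes had a count, where the other libraries had 27692 to 33841. All 8 dendritic cell markers examined were detected, with a summed level of 4822 to 8221 CPM in WT and 6357 to 7608 CPM in Nfkb2-/- libraries. Cd74 was the most abundant. Itgax was the 1 called of the 8, and higher in Nfkb2-/- (log2 change 1.99, edgeR adjusted p = 0.0414). The log2 changes of the others lay on both sides of 0, from -0.54 to 0.50. Macrophage and monocyte markers, led by Lyz2, summed to 4087, 4135 and 392 CPM in WT replicates 1, 2 and 3 and to 1700 to 2526 CPM in the Nfkb2-/- libraries, so that WT replicate 3 stood apart. Granulocyte markers, led by S100a8, summed to at most 231 CPM in any library. Erythroid and megakaryocyte markers, led by Itga2b, summed to at most 5.81 CPM and lymphocyte markers to at most 4.93 CPM. Mast cell and basophil markers summed to 8.40 to 13.2 CPM in WT and 2.60 to 3.85 CPM in Nfkb2-/- libraries, and Cpa3 among them was lower in Nfkb2-/- (log2 change -1.84, edgeR adjusted p = 0.0413).

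On GRCm38, Csrp2 (ENSMUSG00000020186) lies on the plus strand at chr10:110919789-110939622 and Marcks (ENSMUSG00000069662) on the minus strand of the same chromosome at chr10:37133375-37138920. Csrp1 (ENSMUSG00000026421) lies at chr1:135720061-135752232, Fscn1 (ENSMUSG00000029581) at chr5:142960343-142973185, Marcksl1 (ENSMUSG00000047945) at chr4:129513581-129515985, Lsp1 (ENSMUSG00000018819) at chr7:142460809-142494867, Lcp1 (ENSMUSG00000021998) at chr14:75131101-75230842 and Actn1 (ENSMUSG00000015143) at chr12:80167547-80260371. All 8 are protein-coding, and the values are the reads that the authors assigned to each gene. Of the 2165 different 50-base stretches in annotated Csrp2 transcripts, 0 occurred in transcripts of any other gene on either strand, and the same held for the 1904 of Csrp1 and the 3020 of Fscn1. Csrp2 and Csrp1 thus share no stretch of this length. Sharing reached 1.61% of stretches for Marcksl1, with the pseudogene Marcksl1-ps4 among the partners, 6.79% for Actn1 and 8.17% for Lcp1. Genes that overlap Actn1 or Lcp1 on the opposite strand hold many of these, and whether the counting used strand is not given in the sources used here. Those overlapping genes held few counts, 1164 over the 6 libraries for Gm15629 against 480524 for Lcp1. Lsp1 overlaps Prr33, with 5547 counts against 171605.

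Promoter sequences from RefSeq (GRCm38.p6) could be matched for 5 of the 8 genes, Csrp1, Fscn1, Marcksl1, Lcp1 and Actn1. Those of 3 genes are shown, Fscn1 and Marcksl1, whose levels were lower in Nfkb2-/- cells, and Actn1, whose level was higher, because NF-κB dimers bind DNA at κB sites. Capitals mark matches on either strand to a κB pattern of GGG, any 5 bases and CC, and each sequence runs 5′ to 3′ toward the start of the gene and ends before it.
Fscn1, chr5:142960105-142960342, plus strand: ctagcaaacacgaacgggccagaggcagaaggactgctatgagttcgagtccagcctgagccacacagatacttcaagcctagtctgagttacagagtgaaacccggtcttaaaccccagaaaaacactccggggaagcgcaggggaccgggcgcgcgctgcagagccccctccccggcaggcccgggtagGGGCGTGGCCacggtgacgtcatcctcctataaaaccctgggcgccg
Marcksl1, chr4:129513331-129513580, plus strand: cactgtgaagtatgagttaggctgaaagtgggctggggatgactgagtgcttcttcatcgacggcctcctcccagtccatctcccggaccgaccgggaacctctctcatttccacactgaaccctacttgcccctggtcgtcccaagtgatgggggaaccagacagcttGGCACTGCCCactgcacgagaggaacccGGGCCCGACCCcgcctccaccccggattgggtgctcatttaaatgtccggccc
Actn1, chr12:80260372-80260613, minus strand: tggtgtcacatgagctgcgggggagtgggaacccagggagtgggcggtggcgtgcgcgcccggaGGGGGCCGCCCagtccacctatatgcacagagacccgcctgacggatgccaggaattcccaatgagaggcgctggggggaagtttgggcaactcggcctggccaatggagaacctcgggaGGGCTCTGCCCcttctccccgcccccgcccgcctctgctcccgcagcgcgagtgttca
Fscn1 held 1 match, Marcksl1 held 3, of which 2 overlap on opposite strands, and Actn1 held 4 in 2 overlapping pairs. The Csrp1 and Lcp1 windows held 0. Of 32851 promoter windows of 250 bases, 45.8% held at least 1 match. A CArG box, the serum response factor pattern, was found in 0 of the windows of the 5 genes, against 1.47% of all windows. The Fscn1 promoter also holds TATAAA near the end of the window, as do 12.4% of all windows. A match describes letters and is no evidence of binding.

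Csrp2 measured 53.1, 29.1 and 72.4 CPM in WT replicates 1, 2 and 3 and 2.69, 2.54 and 1.89 CPM in Nfkb2-/- replicates 1, 2 and 3. The lowest WT library stood 10.8-fold above the highest Nfkb2-/- library. Mean levels were 51.5 ± 21.7 CPM in WT and 2.37 ± 0.424 CPM in Nfkb2-/- cells (n = 3 each). Csrp2 thus fell 21.8-fold, with a log2 change of -4.45 (SE 0.38). In raw counts these were 2240, 945 and 2104 reads in WT and 91, 77 and 101 reads in Nfkb2-/- libraries. Csrp2 ranked 1 by size of fall among the 149 genes called lower, which is the reason it was chosen. Its log2 change lay between -4.73 and -4.12 when any single library was left out. Its relative Csrp1 measured 162, 125 and 187 CPM in WT and 141, 170 and 168 CPM in Nfkb2-/- libraries, and the genotypes overlapped. Its log2 change was 0.01 (SE 0.19) and changed sign in 6 of 13 alternative analyses, staying between -0.13 and 0.16.

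**Figure D1:**
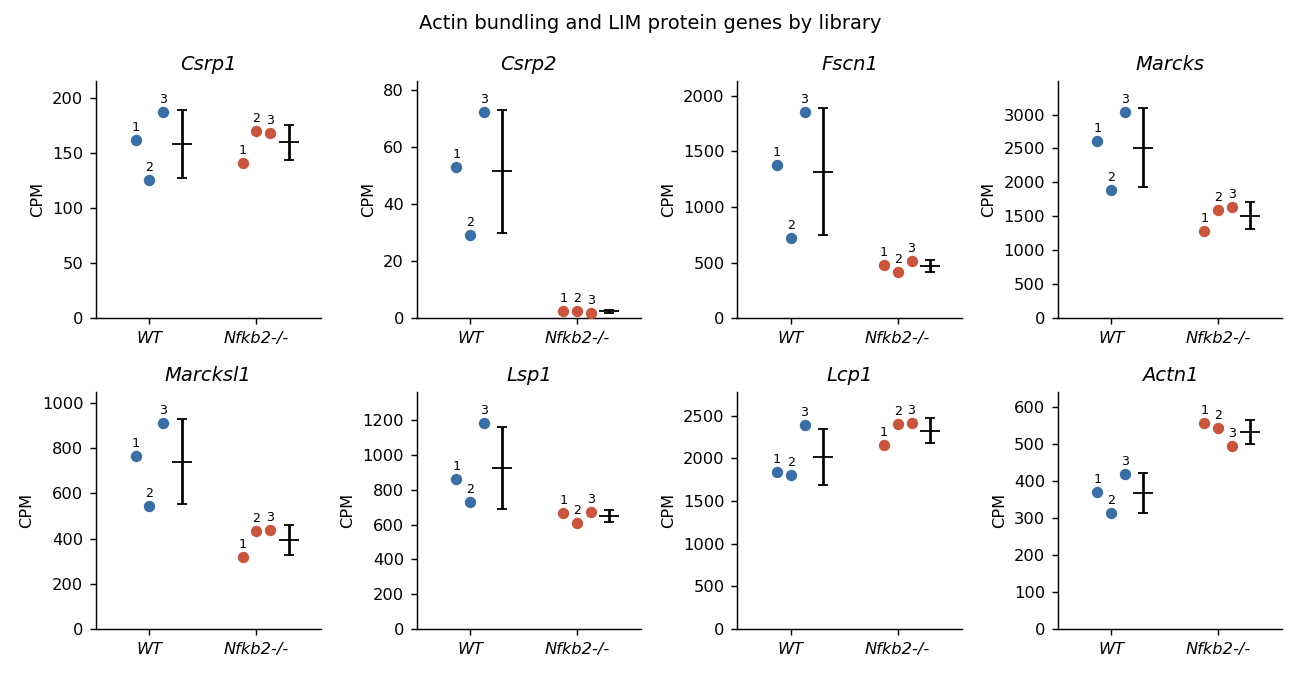
CPM of each of the 8 genes, by genotype on the x axis. Points are single libraries with their replicate number, and the bar beside them gives the mean and SD (n = 3). The Csrp2 points of the Nfkb2-/- libraries lie at 1.89 to 2.69 CPM against 29.1 to 72.4 CPM in WT, whereas those of Csrp1 overlap.

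Because both relatives were read in the same library, their ratio does not depend on normalization. Per kilobase of exon, Csrp2 stood at 0.209 to 0.349 of the level of Csrp1 in the WT libraries and at 0.0102 to 0.0172 in the Nfkb2-/- libraries. The ratio between these mRNAs thus separated every WT library from every Nfkb2-/- library.

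Fscn1 came next in size. It measured 1378, 719 and 1853 CPM in WT replicates 1, 2 and 3 and 479, 416 and 515 CPM in the Nfkb2-/- replicates. The WT libraries spread over 2.58-fold and the Nfkb2-/- libraries over 1.24-fold, and the lowest WT library stayed above the highest Nfkb2-/- library. The means were 1317 ± 570 CPM and 470 ± 50.2 CPM, a log2 change of -1.49 (SE 0.34). Leaving out WT replicate 3, the library with the highest value, reduced this to -1.16, and leaving out WT replicate 2 gave -1.78. The other parallel bundler, Lcp1, measured 1836, 1807 and 2390 CPM in WT and 2157, 2397 and 2417 CPM in Nfkb2-/- libraries with overlap (log2 change 0.21, SE 0.19, and 0.14 without WT replicate 2 or 0.35 without WT replicate 3). The ratio of Fscn1 to Lcp1 per kilobase of exon was 1.25 to 2.45 in WT and 0.547 to 0.700 in Nfkb2-/- libraries, without overlap. Whether it lies above or below 1 depends on the exon lengths used, 3012 bases for Fscn1 and 9504 for Lcp1. These lengths cover all annotated transcripts, and a single mRNA can be shorter. In CPM, without division by length, Lcp1 stood above Fscn1 in all 6 libraries.

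The protein kinase C substrates were both at lower levels in the knockout. Marcks, the most abundant of the 8 per length, measured 2615, 1885 and 3038 CPM in WT and 1279, 1598 and 1644 CPM in Nfkb2-/- libraries. Its log2 change was -0.74 (SE 0.23). Marcksl1 measured 768, 542 and 913 CPM in WT and 318, 432 and 436 CPM in Nfkb2-/- libraries (log2 change -0.91, SE 0.24). Neither gene overlapped between the genotypes. The ratio between the relatives was narrow, at 0.725 to 0.758 in WT and 0.626 to 0.681 in Nfkb2-/- libraries for Marcksl1 over Marcks per kilobase.

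Lsp1 measured 865, 728 and 1186 CPM in WT and 666, 610 and 673 CPM in Nfkb2-/- libraries, without overlap (log2 change -0.51, SE 0.21). The gap was small, since the lowest WT library exceeded the highest Nfkb2-/- library by a factor of 1.08, and the log2 change was -0.29 without WT replicate 3. The separation also depends on TMM. Lsp1 had 23655 of 31221427 counts in WT replicate 2 and 22545 of 29148310 in Nfkb2-/- replicate 1, a larger share in the knockout library. Actn1 was the 1 gene of the set with the opposite separation. It measured 371, 312 and 418 CPM in WT and 557, 542 and 494 CPM in Nfkb2-/- libraries, or 367 ± 53.2 against 531 ± 32.7 CPM, a log2 change of 0.53 (SE 0.17). The ratio of Fscn1 to Actn1 per kilobase, a bundler of tight filaments against a loose crosslinker, was 4.23 to 8.14 in WT and 1.41 to 1.91 in Nfkb2-/- libraries.

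**Figure D2:**
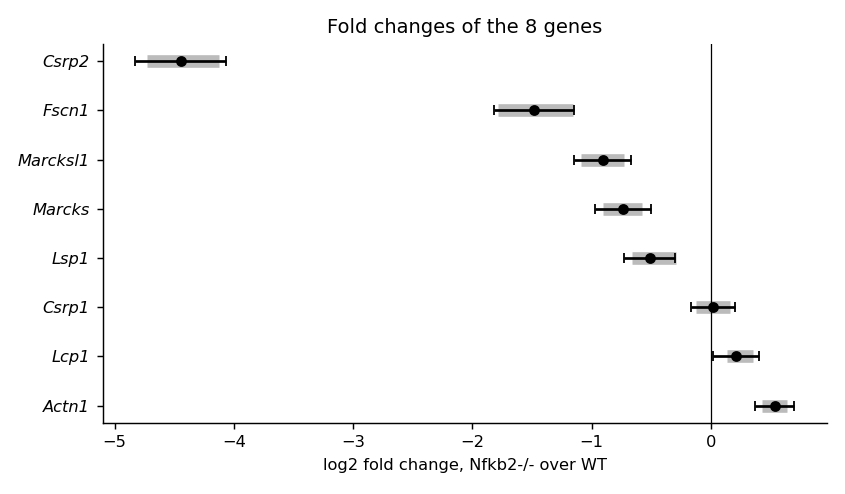
log2 change of Nfkb2-/- over WT for the 8 genes. Black points and bars give edgeR's estimate with its standard error from 3 libraries per genotype, and grey bars the range over 13 alternative analyses. Csrp2 lies at -4.45, Fscn1 at -1.49 and Actn1 at 0.53, and the range of Csrp1 includes 0.

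With genes called at more than 1.2-fold and an edgeR adjusted p below 0.05, Csrp2 was the 1 called of the 8, where 1.14% of all genes tested were called, 0.682% lower and 0.453% higher in Nfkb2-/- cells. DESeq2 called 5 of the 8 (8.60% of all genes) and limma voom 1 (2.23%). Without overlap between the genotypes in CPM after TMM, 5 of the 8 were lower and 1 was higher in the Nfkb2-/- libraries, where 12.0% and 12.7% of all genes tested were so placed. For Lsp1 this placing depends on TMM. The genes were assembled on this same contrast, so that nothing is read from these shares. The median log2 change was -0.62 over the 8 genes and 0.08 over all genes tested. With edgeR, 0 genes at all were called without WT replicate 1 or without any 1 of the Nfkb2-/- replicates, where 2325 to 4088 had an unadjusted p-value under 0.05, against 3730 (17.1%) with all 6 libraries. Without WT replicate 2, 3 of the 8 were called, Csrp2, Fscn1 and Marcksl1, where 5.87% of all genes were called.

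Compared per kilobase of exon, the WT levels ran in the order Marcks (621 ± 144 CPM per kilobase, n = 3), Marcksl1 (462 ± 117), Fscn1 (437 ± 189), Lcp1 (212 ± 34.6), Lsp1 (179 ± 45.5), Csrp1 (80.8 ± 15.8), Actn1 (66.3 ± 9.62) and Csrp2 (23.7 ± 10.0). In this order, the ranges over libraries of Lsp1 and Csrp1 and those of Actn1 and Csrp2 did not overlap, and all other neighbours did. Compared within each library, the order of neighbours held in all 3 WT libraries except for Marcksl1 above Fscn1, which held in 2. In the Nfkb2-/- libraries the order was Marcks (372 ± 49.0 CPM per kilobase, n = 3), Marcksl1 (246 ± 41.8), Lcp1 (244 ± 15.2), Fscn1 (156 ± 16.7), Lsp1 (126 ± 6.70), Actn1 (96.0 ± 5.91), Csrp1 (81.6 ± 8.22) and Csrp2 (1.09 ± 0.196). Only Marcksl1 and Lcp1 overlapped among these neighbours, and Marcksl1 stood above Lcp1 in 2 of the 3 libraries. In this order per kilobase, which depends on the exon lengths used, Fscn1 and Lcp1 had changed places, as had Csrp1 and Actn1. The 7 genes other than Csrp2 stood among the most abundant mRNAs of these cells, from the 98.2 percentile upward of all genes tested, by the mean level per length over all 6 libraries.

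**Figure D3:**
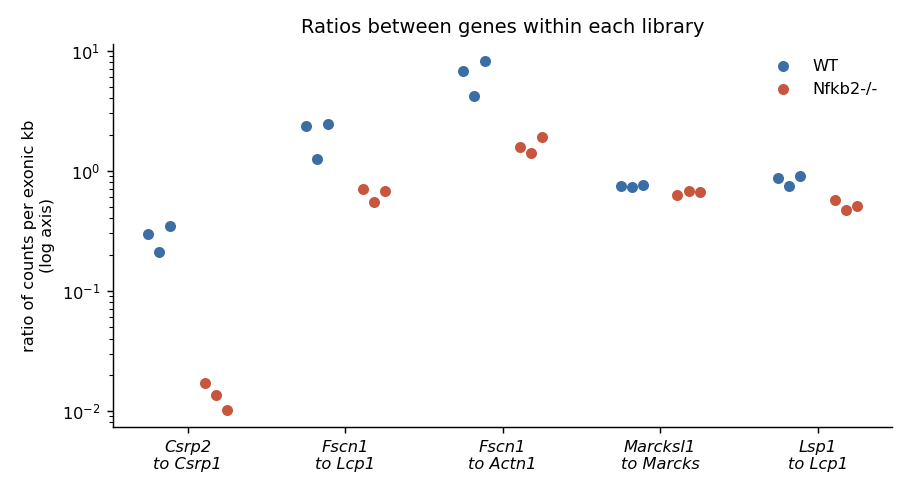
Ratios of counts per kilobase of exon between pairs of the genes within each library, on a log axis, with WT in blue and Nfkb2-/- in red. Csrp2 to Csrp1 is 0.209 to 0.349 in WT and 0.0102 to 0.0172 in Nfkb2-/- libraries. Marcksl1 to Marcks is 0.725 to 0.758 in WT and 0.626 to 0.681 in Nfkb2-/- libraries.

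The WT libraries differed among themselves in an order shared by the whole set. In all 8 genes WT replicate 3 was highest, replicate 1 intermediate and replicate 2 lowest, an order found in 23.7% of all genes tested and in 40.5% of the 3840 genes averaging 50 CPM or more. For Lcp1, at 1836 and 1807 CPM, the order of replicates 1 and 2 depends on TMM. It had 77397 of 42653852 counts in replicate 1 and 58749 of 31221427 in replicate 2, a larger share in replicate 2. Fscn1 and Csrp2 spread most, with 2.58-fold and 2.49-fold between the highest and lowest WT library, and Lcp1 and Actn1 least, with 1.32-fold and 1.34-fold. Among the Nfkb2-/- libraries no gene spread over more than 1.42-fold. Ccr7, the chemokine receptor that guides mature dendritic cells to lymph nodes, had the same order, with 1149, 640 and 1897 CPM in WT and 673, 611 and 596 CPM in Nfkb2-/- libraries. So did Cd83, a surface marker of mature dendritic cells, with 877, 555 and 1417 CPM in WT and 408, 478 and 429 CPM in Nfkb2-/- libraries. Over the whole list of 18 mature dendritic cell genes, 10 had this order in WT. Neither Ccr7 nor Cd83 was called between the genotypes (edgeR adjusted p = 0.235 and 0.150), and Ccr7 overlapped. Of the 18, 6 were lower and 2 higher in Nfkb2-/- without overlap, where 12.0% and 12.7% of all genes tested were. The summed macrophage and monocyte markers were lowest in WT replicate 3, at 392 CPM, where all 8 genes were highest. Their part in the differences between genotypes was not tested.

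Markers of fibroblasts and smooth muscle, where Csrp2 is best known, were also examined. All 12 fibroblast and smooth muscle markers had at least 1 count, and their summed level was 70.1, 20.1 and 5.09 CPM in WT replicates 1, 2 and 3 and 40.5, 21.7 and 9.92 CPM in the Nfkb2-/- replicates. The genotypes overlapped, and WT replicate 3, with the highest Csrp2 level, had the lowest sum. The part of such cells in the Csrp2 difference was not tested. Col1a2, the most abundant of them, measured 28.1, 5.41 and 0.516 CPM in WT and 9.28, 7.84 and 2.34 CPM in Nfkb2-/- libraries. Col3a1, Des, Dcn and Lum were at 0 in at least 1 library. Endothelial markers, led by Tie1, summed to at most 1.49 CPM in WT and reached 10.1 CPM in Nfkb2-/- replicate 1.

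The genes whose profile over the 6 libraries lay nearest to that of Csrp2 were sought among 15308 genes averaging 1 CPM or more, by the root mean square difference of log2 CPM centred on its mean. They were H2-M2 (0.68), Pcdhgc3 (0.74), Ndp (0.75), Gls2 (0.76) and the noncoding gene Gm20465 (0.76). Pcdhgc3 and Ndp measured only 0.148 to 0.231 and 0.0659 to 0.177 CPM in Nfkb2-/- libraries. So few reads leave their distances dependent on the prior count. H2-M2, a nonclassical MHC class I gene, measured 284, 85.1 and 546 CPM in WT and 23.8 to 25.2 CPM in Nfkb2-/- libraries. Gls2, a mitochondrial glutaminase, measured 24.7, 12.8 and 19.7 CPM in WT and 1.91 to 3.22 CPM in Nfkb2-/- libraries. H2-M2 and Pcdhgc3 belong to gene families, and shared sequence was not measured for them. The genes nearest to Fscn1 lay much closer, at 0.12 for Thap12, 0.12 for F11r and 0.13 for Mylip. F11r, which encodes the junctional adhesion molecule JAM-A, measured 30.2, 13.8 and 43.1 CPM in WT and 8.40 to 9.35 CPM in Nfkb2-/- libraries. Mylip, a ubiquitin ligase of the lipoprotein receptor, measured 71.9, 33.6 and 94.5 CPM in WT and 22.6 to 24.1 CPM in Nfkb2-/- libraries. Within the set, Marcksl1 lay nearest to Fscn1, at 0.36, and Actn1 farthest except for Csrp2, at 1.01. A short distance describes likeness over 6 libraries and nothing more.

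**Figure D4:**
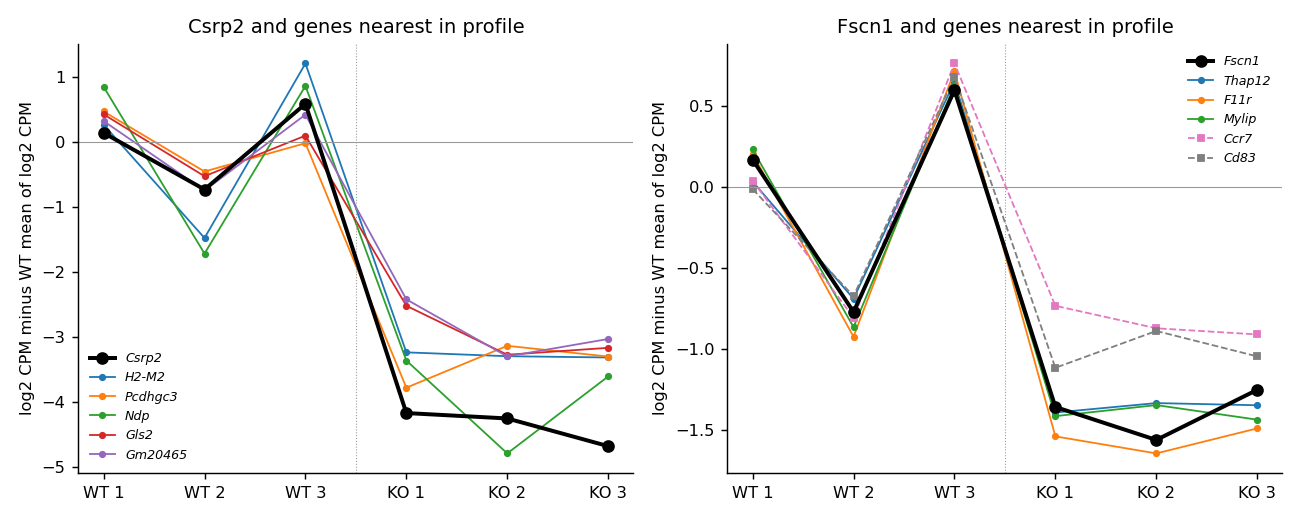
log2 CPM of Csrp2 with its 5 nearest genes (left) and of Fscn1 with its 3 nearest genes, Ccr7 and Cd83 (right) in each of the 6 libraries, minus the gene's mean log2 CPM over the WT libraries. KO stands for Nfkb2-/-, and lines only join the points of a gene. WT replicate 2 is the lowest WT library of every gene drawn, and every Nfkb2-/- point of Csrp2 and its neighbours lies below their WT points.

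Wider lists of actin genes that hold none of the 8 were set beside them, and their counts at an unadjusted p-value under 0.05 are to be read against 17.1% of all genes tested. Among other bundling and crosslinking proteins, 0 of 24 genes tested were called with edgeR, 4 with DESeq2 and 1 with limma voom, and 5 had an unadjusted p-value under 0.05. Their median log2 change was 0.25, and filamin A (Flna) and calponin (Cnn2), the most abundant per length, stood at -0.15 and -0.60 (SE 0.21 and 0.30, edgeR adjusted p = 0.753 and 0.372). Among other LIM domain genes, 0 of 39 tested were called with edgeR, 7 with DESeq2 and 1 with limma voom, and 15 had an unadjusted p-value under 0.05. Their median was 0.28, and Zyx and Tes, of adhesion site proteins, stood at -0.27 and 0.25 (edgeR adjusted p = 0.432 and 0.657). Filament nucleation had 0 of 29 called with edgeR, 2 with DESeq2 and 0 with limma voom, 7 at an unadjusted p-value under 0.05 and a median of -0.02, with the Arp2/3 subunits Arpc2 and Arpc5 at -0.01 and 0.05 (edgeR adjusted p = 0.975 and 0.914). Actin and filament turnover had 0 of 24 called with edgeR, 6 with DESeq2 and 2 with limma voom, 6 at an unadjusted p-value under 0.05 and a median of -0.01. Actb (beta-actin) and the monomer binder Tmsb4x stood at -0.12 and -0.30 (edgeR adjusted p = 0.846 and 0.640), and related gene copies may have taken part of their reads.

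Myo10, the motor of filopodial tips, where fascin bundles end, measured 74.6, 59.0 and 97.9 CPM in WT and 34.1, 34.3 and 33.5 CPM in Nfkb2-/- libraries and fell by 1.18 on the log2 scale (SE 0.20, edgeR adjusted p = 0.0489, 3.44e-05 to 0.222 over 13 alternatives). Tpm1, a tropomyosin that coats filaments, measured 195, 129 and 223 CPM in WT and 78.3, 71.2 and 72.2 CPM in Nfkb2-/- libraries and fell by 1.30 (SE 0.22, edgeR adjusted p = 0.0462, 9.52e-06 to 0.222). Myo1e, a myosin that links actin to membranes, rose from 63.9 ± 5.97 to 119 ± 9.30 CPM (log2 change 0.90, SE 0.14, edgeR adjusted p = 0.0420, 3.54e-06 to 0.250). These were the 3 called of 21 genes of myosins, tropomyosins and regulators of contractility, whose median was -0.11. Tpm4 and Myh9, the most abundant, stood at -0.35 and -0.61 (edgeR adjusted p = 0.502 and 0.241).

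Of 11 genes of protein kinase C and calmodulin, the regulators of Marcks and Marcksl1, 3 were called and the median was 0.02. Prkcd, the delta isoform, measured 202, 313 and 292 CPM in WT and 699, 691 and 619 CPM in Nfkb2-/- libraries and rose by 1.32 (SE 0.20, edgeR adjusted p = 0.0420, 4.07e-07 to 0.217 over 13 alternatives). Prkcq, the theta isoform, rose from 2.21 ± 0.774 to 9.11 ± 0.278 CPM (log2 change 2.04, edgeR adjusted p = 0.0332, 2.78e-08 to 0.186). Prkce, the epsilon isoform, fell from 25.4 ± 2.18 to 11.8 ± 0.534 CPM (log2 change -1.11, edgeR adjusted p = 0.0332, 1.61e-08 to 0.200). The calmodulin gene Calm2 stood at -0.02 (edgeR adjusted p = 0.981).

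The 18 mature dendritic cell genes had 3 called and a median of -0.38. Il15ra, the receptor chain that presents IL-15, fell from 92.9 ± 23.2 to 38.0 ± 1.68 CPM (log2 change -1.29, edgeR adjusted p = 0.0420, 3.62e-06 to 0.217 over 13 alternatives). Il12b, the p40 subunit gene, fell from 98.6 ± 61.1 to 11.6 ± 1.86 CPM (log2 change -3.09, edgeR adjusted p = 0.0489, 2.30e-22 to 0.217). The chemokine gene Ccl17 rose from 318 ± 140 to 2405 ± 60.2 CPM (log2 change 2.92, edgeR adjusted p = 0.0307, 1.79e-13 to 0.163), and Ccl22 stood at -0.50 (edgeR adjusted p = 0.404). Without WT replicate 2, 7 of the 18 were called, where 5.87% of all genes were. The 3 calls in each of these last 3 lists were lost without WT replicate 1 and without any 1 of the Nfkb2-/- replicates. Without WT replicate 3, those of Tpm1, Myo1e, Prkcd and Il12b were lost too.

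**Figure D5:**
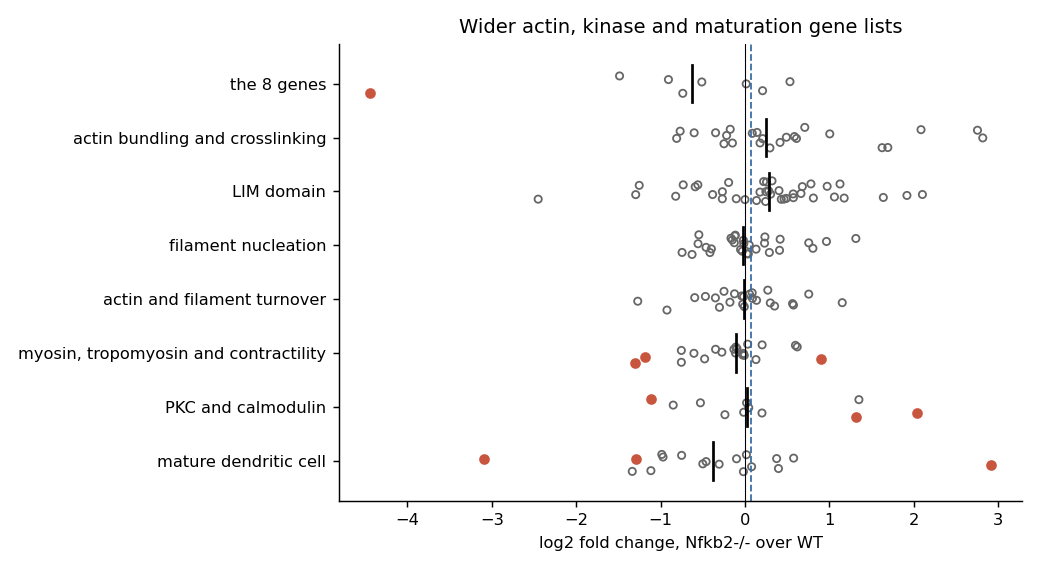
log2 change of Nfkb2-/- over WT for the 8 genes and for the tested genes of the 7 wider lists, 1 point per gene. Filled red points passed the threshold, black bars mark each list's median and the dashed line the median of all genes tested, 0.08. Csrp2, at -4.45, was chosen for having the largest fall, so its place below every wider list follows from the choice.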

How the data were processed

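Bulk RNA-seq of polyadenylated RNA from 3 WT and 3 Nfkb2-/- BMDC cultures was analysed, grouped by the sample titles. The authors deposited whole-number read counts per Ensembl gene and library, without normalization. The submitters' processing notes name HISAT2, GRCm38 and mm10, and the counting tool, annotation and use of strand are not given in the sources used here. The joined table held the same values in all 6 columns. The 21849 genes that GENCODE M21 (GRCm38) names and that summed to 50 or more counts entered the test. Unnamed IDs, with 1.01% to 1.75% of counts, stayed out of library sizes and tests. Counts were TMM-normalized and genotypes compared with edgeR 4.0.16 (glmQLFit, glmQLFTest, R 4.3.3) without covariates. Calls needed more than 1.2-fold and, after Benjamini-Hochberg adjustment, p below 0.05. DESeq2 1.42.0, limma voom 3.58.1, RLE size factors, total counts, other filters, the replicate block and each library left out were alternatives. Libraries held 29863927 to 55623068 counts. Per-kilobase levels divide CPM by the summed exon length of the gene over all its annotated transcripts.

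The members and lists were chosen with earlier results of these data known. Genes named are the 8 members, Nfkb2, the 5 nearest to Csrp2 and the 3 nearest to Fscn1 in profile, up to 4 called genes and the 2 most abundant per length of each list, and the most abundant gene of each marker list. A few results that this rule names are not reported here. Itgax, Ccr7, Cd83, Marcksl1-ps4, the overlapping genes and the markers at 0 were named after their values were seen. Log2 CPM for profiles used a prior count of 2.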

Additional observations from a re-analysis of the deposited data

How the results depend on the processing

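Of 234 values computed under 13 alternatives, 175 kept their direction and their place relative to the threshold or moved little. Leaving aside the fold changes of the 8 genes, 71 of 130 did so, among them counts of 0 that stayed at 0. All 104 log2 fold changes of the 8 genes under the alternatives moved by less than the SD between replicates, pooled over genotypes. With 1 of 3 libraries left out, a larger shift is hardly possible, so that this criterion says little there. The log2 fold change ran from -1.78 to -1.16 for Fscn1 and from -0.66 to -0.29 for Lsp1. Only that of Csrp1, near 0, changed sign, in 6. The counts of called genes depended on the test and on single libraries. With DESeq2, 1878 genes were called over all and 5 among the 8 (Actn1, Csrp2, Fscn1, Marcks and Marcksl1), with 4 among other bundling genes, 7 among LIM domain genes, 2 in nucleation and 6 in turnover. With limma voom these were 488 over all, 1 in bundling, 1 among LIM domain genes and 2 in turnover. With filterByExpr, 397 were called over all, 1 LIM domain gene and 1 turnover gene, and with total counts 1 turnover gene. With no filter beyond 1 count, 1625 were called over all, 2 among the 8, 3 in bundling, 4 among LIM domain genes, 1 in nucleation, 2 in turnover, 5 among kinases and calmodulins and 5 mature dendritic cell genes. With 1 library left out, counts ran from 0 to 1248 over all, 0 to 3 among the 8, 0 to 2 in bundling, LIM domain and nucleation genes, 0 to 4 in turnover, myosin and kinase lists and 0 to 7 among mature dendritic cell genes, and the log2 fold change of Nfkb2 from -2.96 to -2.33. The cause of these differences was not tested.

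The replicate numbers did not meet the test for pairing. The correlation of same-numbered libraries' deviations from their genotype mean was 0.26, 0.15 and 0.02, and WT replicate 2 correlated better with Nfkb2-/- replicate 3. With the replicate block, edgeR called 0 genes over all (3331 at an unadjusted p-value under 0.05), and 0 among the 8 and in each list. The log2 fold change of Nfkb2 was -2.65 with the block (adjusted p = 0.0594 from edgeR).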
